A study of Mus musculus with 6 samples.

Results

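The genes described here are the chains of mouse MHC class II and their partners: H2-Aa, H2-Ab1, H2-Eb1, H2-DMa, H2-DMb1, H2-DMb2, H2-Oa, H2-Ob, Cd74 and Ciita. They were taken by name, and all 10 were among the 13264 targets of the deposited table. The table covers 6 regions of mouse cholangiocarcinoma measured with GeoMx, in which light frees the tags of hybridised probes from part of a section so that they can be sequenced and counted. The tumours grew from the SB mouse cholangiocarcinoma line. Tags were taken from Desmin-positive, CD45-negative area, a mask aimed at tumour fibroblasts and activated stellate cells of the liver. Per the labels, 3 regions (Cd274F/F regions 1 to 3, areas 11, 12 and 13) came from Cd274F/FCol1A1Cre mice, with both Cd274 alleles floxed. The other 3 (Cd274+/+ regions 1 to 3, areas 14, 15 and 16) came from Cd274+/+Col1A1Cre mice, so that both groups carry the Cre. Cd274 is the gene of PD-L1, which dampens T cell responses, and a collagen promoter drives the Cre, so cells that never use this promoter would keep the gene. The labels used here give no age, strain or number of mice, nor the mouse behind a region. P-values below therefore rest on the spread between regions, and are too small if regions share an animal. The comparison asks how the class II genes of this mask differ where Cd274 is floxed.

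MHC class II molecules present peptides from the endocytic route to CD4 T cells. A peptide-binding molecule is a pair of an alpha and a beta chain, held by the invariant chain Cd74 until it reaches a late endosome, where H2-DM removes the last fragment of Cd74 and lets peptides in, and H2-DO restrains H2-DM. Dendritic cells and B cells, and to a varying degree macrophages, make most of these genes constitutively. Many other cells, fibroblasts included, make them after interferon-gamma, through the transactivator Ciita, and fibroblasts that do so in tumours have been called antigen-presenting fibroblasts.

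Class II promoters are known for a shared module, in which an X box is bound by RFX factors and a Y box, an inverted CCAAT, by NF-Y, with Ciita assembling on both. Promoters from RefSeq (GRCm38.p6) were at hand for 7 of the 10 genes. The 130 bases before the gene start are shown for 6 of them, which lie in 1 cluster. The sequence of H2-DMa, in the same cluster, is not shown. Capitals mark the motifs searched on both strands: CTGATTGG (the Y box), CCAAT (which lies inside it, inverted), CCTNGNNAC and TAGNAAC (X box cores, which overlap each other) and TGACGTCA (a site for CREB-type factors). TAGNAAC was chosen after the sequences had been seen.
H2-Aa, chr17:34287824-34287953, minus strand: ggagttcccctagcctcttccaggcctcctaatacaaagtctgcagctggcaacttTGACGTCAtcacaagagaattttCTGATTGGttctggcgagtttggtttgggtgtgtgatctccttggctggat
H2-Eb1, chr17:34305737-34305866, plus strand: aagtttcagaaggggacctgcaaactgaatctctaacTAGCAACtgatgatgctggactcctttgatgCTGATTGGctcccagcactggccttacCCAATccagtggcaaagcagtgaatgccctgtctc
H2-DMb1, chr17:34153061-34153190, plus strand: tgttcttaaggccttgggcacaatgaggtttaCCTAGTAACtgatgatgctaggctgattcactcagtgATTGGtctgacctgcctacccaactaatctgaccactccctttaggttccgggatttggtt
H2-DMb2, chr17:34145119-34145248, plus strand: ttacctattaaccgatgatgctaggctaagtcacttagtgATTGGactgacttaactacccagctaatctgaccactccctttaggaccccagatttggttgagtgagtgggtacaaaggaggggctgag
H2-Oa, chr17:34092249-34092378, plus strand: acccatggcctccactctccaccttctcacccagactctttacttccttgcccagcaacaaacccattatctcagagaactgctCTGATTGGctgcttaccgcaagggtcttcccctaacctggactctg
H2-Ob, chr17:34238775-34238904, plus strand: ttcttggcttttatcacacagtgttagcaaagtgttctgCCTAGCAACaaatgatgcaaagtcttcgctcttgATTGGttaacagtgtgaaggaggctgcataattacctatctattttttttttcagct

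In the 250 bases before the start, CCAAT was found for 7 of 7 genes, against 33.8% of 32851 promoter windows in the table. The single match of H2-DMa began 198 bases before the start, against 43 to 90 bases for the inverted CCAAT of the others. CTGATTGG was found for 3 of 7 (H2-Aa, H2-Eb1 and H2-Oa), against 3.83% of windows, and began 51, 62 and 46 bases before the start. CCTNGNNAC was found for H2-DMb1 and H2-Ob (13.5% of windows), TAGNAAC for H2-DMb1, H2-Eb1 and H2-Ob (9.93%), and TGACGTCA for H2-Aa (1.55%). H2-DMb1 and H2-DMb2, the paralogous beta chains of H2-DM, shared an unbroken run of 23 bases in the windows shown. A match describes letters and is no evidence that a factor bound there.

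Summed signal was 223253 to 393615 in Cd274F/F regions and 720786 to 1024180 in Cd274+/+ regions, and the negative probe, a measure of background, read 3.18 to 3.98 and 6.84 to 9.41. Each region was therefore brought to the same 75th percentile (Q3), and signals below are on this scale unless stated otherwise. On it the negative probe read 4.77, 6.97 and 5.39 in Cd274F/F regions and 5.06, 4.86 and 4.76 in Cd274+/+ regions. Cd274 itself read 11.1, 17.4 and 29.2 in Cd274F/F regions, against 10.6, 14.2 and 13.4 in Cd274+/+ regions. It did not pass the test (log2 change 0.47 ± 0.36 SE, adjusted p = 0.610, limma), and the labels do not say which part of its transcript the probe covers, so the directions below are drawn from the labels. The areas of the 2 genotypes are numbered in 2 consecutive runs on a slide, and genotype and this order cannot be told apart. The labels used here do not give where on the slide an area lay. In a mask of many cells, more cells of a type and more RNA per cell cannot be told apart either.

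After Q3 scaling, 6 of the 10 class II genes were higher in Cd274F/F regions and 0 were lower by limma, taking an adjusted p under 0.05 (Benjamini-Hochberg, over all targets). Over all 13264 targets 0.588% were called higher and 0.113% lower. The 6 were the peptide-binding chains H2-Aa, H2-Ab1 and H2-Eb1, the H2-DM chains H2-DMa and H2-DMb2, and Ciita. For 9 of the 10 every Cd274F/F region lay above every Cd274+/+ region, as did 10.1% of all targets, with H2-Ob the exception, while 9.08% of all targets lay apart in the lower direction. At an unadjusted p under 0.05, 9 of the 10 were higher, beside 6.73% of all targets. The median log2 change of the 10 was 1.57, beside 0.02 for all targets. On the deposited scale the median was 0.29 beside -1.22 for all targets, with 0 members called in either direction and 0 at an unadjusted p under 0.05. There, 0.158% of all targets were called higher and 74.7% lower, so that 0.212% of the calls were higher, against 83.9% after Q3 scaling. Unscaled, 7 of the 10 class II genes had a positive change and 3, H2-DMb1, H2-Oa and H2-Ob, a negative one, all within the spread between regions, while most other targets were lower.

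The calls changed when single regions were left out, in fits that also have fewer regions. Without Cd274F/F region 3, Cd274+/+ region 1 or Cd274+/+ region 2, 0 members were called (limma), with 9, 10 and 9 at an unadjusted p under 0.05. Of all 13264 targets these fits called 23, 15 and 21 in either direction, and 1728, 987 and 1034 had an unadjusted p under 0.05. Without Cd274+/+ region 3 the count of members was 3, without Cd274F/F region 2 it was 7 and without Cd274F/F region 1 it was 8. Over all targets 34, 80 and 1024 were called there. All 10 class II changes were positive in every fit with a region left out, with a median of 1.34 to 1.72.

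**Figure D1:**
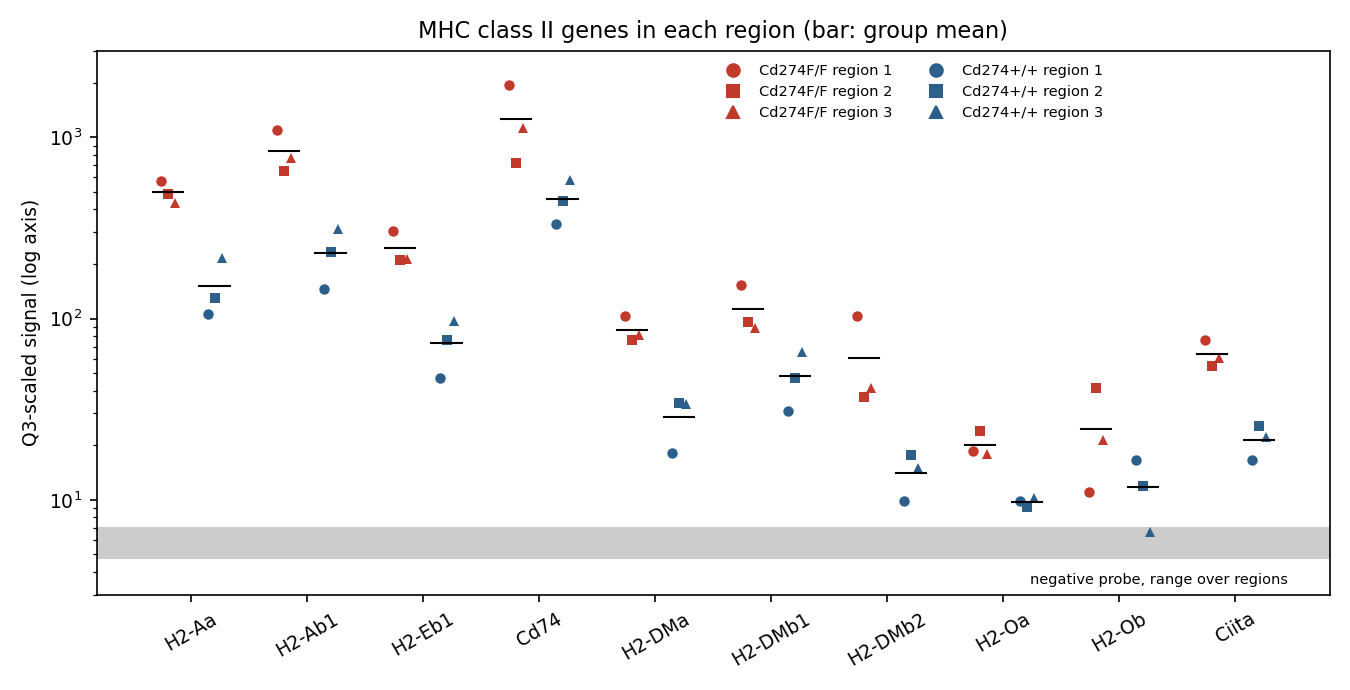
Q3-scaled signal of the 10 class II genes in each region on a log axis, with Cd274F/F regions in red and Cd274+/+ regions in blue, a bar at each group's mean (n = 3) and a grey band for the range of the negative probe. The groups are apart for 9 genes and overlap for H2-Ob, and Cd274F/F region 1 is the highest for 8 genes. Signals of different probes are not comparable as transcript abundance.

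The peptide-binding chains rose together. H2-Aa, the alpha chain of the I-A molecule, read 574, 483 and 433 in Cd274F/F regions, against 106, 130 and 216 in Cd274+/+ regions. Even the lowest Cd274F/F region lay above the highest Cd274+/+ region, with a log2 change of 1.77 ± 0.29 (SE) and an adjusted p of 0.0164 (limma). H2-Ab1, the beta chain that pairs with it, read 1099, 651 and 772 in Cd274F/F regions, against 145, 232 and 312 in Cd274+/+ regions. Its mean was 3.66 times as high, with an adjusted p of 0.0236 (limma). H2-Eb1, the beta chain of the I-E molecule, read 305, 211 and 214 in Cd274F/F regions, against 46.8, 75.7 and 97.2 in Cd274+/+ regions. Its mean was 3.33 times as high, with an adjusted p of 0.0164 (limma). All 3 chains lay far above background, at 69.3 times the negative probe or more in Cd274F/F regions for H2-Aa and at 9.25 times or more in all regions for H2-Eb1. Without Cd274F/F region 3, Cd274+/+ region 1 or Cd274+/+ region 2 all 3 lost their call. With any 1 region left out, their changes lay between 1.47 and 2.15.

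Cd74, the invariant chain, is a chaperone of class II assembly and also a surface receptor for the cytokine MIF. It read 1942, 719 and 1119.5 in Cd274F/F regions, against 334, 445 and 583 in Cd274+/+ regions. The groups did not overlap, but the Cd274F/F regions were far apart, at 1260 ± 623 against 454 ± 125 (SD, n = 3 each). Its log2 change of 1.39 ± 0.38 (SE) did not pass the test (adjusted p = 0.147, limma). It passed without Cd274F/F region 2, at 1.73 with an adjusted p of 0.0457, and with region weights, at 1.29 with an adjusted p of 0.00898 (limma). Cd74 made up 0.388%, 0.147% and 0.210% of a region's whole signal in Cd274F/F regions, against 0.0654%, 0.0865% and 0.113% in Cd274+/+ regions. The 10 genes together made up 0.877%, 0.488% and 0.534%, against 0.144%, 0.200% and 0.263%, shares that do not depend on how regions are scaled. The group shares were 0.633% ± 0.213 and 0.202% ± 0.0597 (SD, n = 3 each), with an exact two-sided permutation p of 0.1, the smallest that 3 against 3 allows.

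H2-DM, the peptide editor of the late endosome, is built of an alpha chain and 1 of 2 beta chains. H2-DMa, the alpha chain, read 104, 76.2 and 80.8 in Cd274F/F regions, against 18.1, 34.2 and 33.9 in Cd274+/+ regions. It rose by 1.60 ± 0.28 (log2, SE), with an adjusted p of 0.0236 (limma). H2-DMb1 read 154, 95.8 and 88.6 in Cd274F/F regions, against 31.0, 47.3 and 65.8 in Cd274+/+ regions. The groups were apart, but the log2 change of 1.23 ± 0.30 (SE) did not pass (adjusted p = 0.110, limma). It was 0.99 both without Cd274F/F region 1 and with region weights, and passed in these fits (adjusted p = 0.0393 and 0.0263). H2-DMb2 read 104, 37.0 and 41.5 in Cd274F/F regions, against 9.82, 17.7 and 14.9 in Cd274+/+ regions. Cd274F/F region 1 stood well above every other region for this gene.

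The log2 change of H2-DMb2 was 1.91 ± 0.37 (SE), with an adjusted p of 0.0404 (limma). Without Cd274F/F region 1 it was 1.45 (adjusted p = 0.00773). Its call was lost without Cd274F/F region 3 or any 1 of the Cd274+/+ regions, at adjusted p of 0.124 to 0.245 (limma). Its Cd274+/+ signal was only 1.94, 3.63 and 3.13 times that of the negative probe, and the size of its change is thus uncertain. Within a region, H2-DMb2 signal was 0.675, 0.386 and 0.468 times that of H2-DMb1 in Cd274F/F regions, against 0.317, 0.373 and 0.227 times in Cd274+/+ regions. These ratios, examined after the values were seen, did not overlap (exact two-sided permutation p = 0.1, the smallest possible), though Cd274F/F region 2 and Cd274+/+ region 2 were close. The 2 beta chains are near-identical paralogs, and a probe may bind both.

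H2-DO, a pair of H2-Oa and H2-Ob best known from B cells and some dendritic and thymic cells, lay near background. H2-Oa, the alpha chain, read 18.5, 24.0 and 17.9 in Cd274F/F regions, against 9.82, 9.11 and 10.3 in Cd274+/+ regions. The groups were apart and tight, at 3.55 ± 0.29 against 1.99 ± 0.15 times the negative probe (SD, n = 3 each), yet the log2 change of 0.97 ± 0.30 (SE) did not pass (adjusted p = 0.203, limma). H2-Ob, the beta chain, read 11.1, 41.4 and 21.3 in Cd274F/F regions, against 16.6, 12.0 and 6.68 in Cd274+/+ regions. It was lowest among the Cd274F/F regions in region 1, where 8 other class II genes were at their highest.

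The log2 change of H2-Ob was 0.90 ± 0.45 (SE, adjusted p = 0.432, limma), and 1.35 with an adjusted p of 0.0406 without Cd274F/F region 1. Without Cd274F/F region 2 it was 0.45 and without Cd274+/+ region 3 it was 0.57. Nearly all values of a region were multiples of 1 small step, and if 1 step is 1 tag, H2-Ob rested on 6, 19 and 19 tags in Cd274F/F regions and on 22, 21 and 13 tags in Cd274+/+ regions. At such numbers counting error alone is large.

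**Figure D2:**
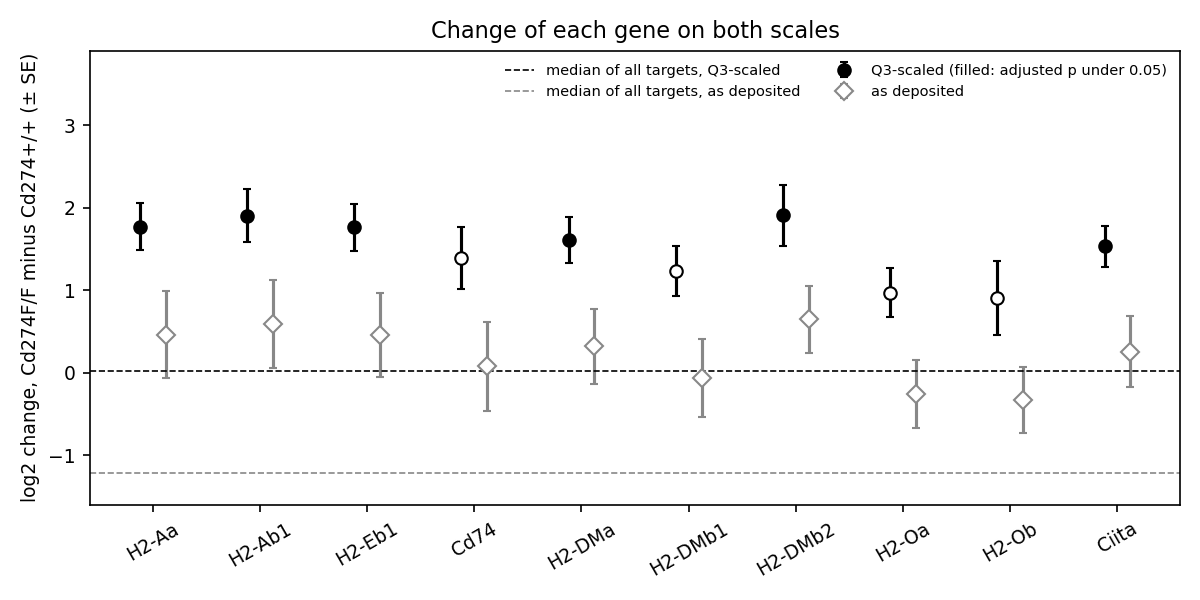
Log2 change, Cd274F/F minus Cd274+/+ regions, of each class II gene with its SE from limma (n = 3 per group), after Q3 scaling (black, filled where the adjusted p is under 0.05) and as deposited (grey). Dashed lines mark the median of all targets at 0.02 and -1.22, and every class II gene lies above the line of its own scale.

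Ciita, the transactivator on which class II transcription depends, read 75.9, 54.4 and 60.6 in Cd274F/F regions, against 16.6, 25.6 and 22.1 in Cd274+/+ regions. It rose by 1.53 ± 0.25 (log2, SE), with an adjusted p of 0.0164 (limma), and lay at 11.7 ± 4.07 against 4.40 ± 1.02 times the negative probe (SD, n = 3 each). Its call was lost without Cd274F/F region 3 or any 1 of the Cd274+/+ regions, at adjusted p of 0.0727 to 0.124. The general factors with which it works did not pass. Of 10 tested genes of class II transcription, 0 were called higher and 0 lower (limma), with 0 higher and 1 lower at an unadjusted p under 0.05 and a median change of -0.0075. Rfx5, a DNA-binding subunit of RFX, read 22.2, 17.4 and 16.8 in Cd274F/F regions, against 21.9, 17.7 and 21.1 in Cd274+/+ regions. Nfya, a subunit of NF-Y, read 13.0, 21.8 and 19.1 in Cd274F/F regions, against 29.5, 26.2 and 30.3 in Cd274+/+ regions, and was lower in each (adjusted p = 0.315, limma).

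Interferon-gamma is known to induce Ciita. Irf1, a transcription factor on this route, rose, and read 194, 179 and 157 in Cd274F/F regions, against 64.2, 70.1 and 69.9 in Cd274+/+ regions (adjusted p = 0.0128, limma). Like most of the class II genes, it was higher in every Cd274F/F region than in any Cd274+/+ region. The receptor chains Ifngr1 and Ifngr2 and the kinases Jak1 and Jak2 changed by -0.05, -0.35, -0.22 and 0.04 with no call.

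Genes that process antigen for class II did not move as a block. Of 15 tested, 0 were called in either direction (limma), 2 were higher and 2 lower at an unadjusted p under 0.05, and the median change was -0.25. Ctss, the cathepsin that degrades the invariant chain in many antigen-presenting cells, read 313, 307 and 369 in Cd274F/F regions, against 82.3, 129 and 192 in Cd274+/+ regions, with a log2 change of 1.37 ± 0.30 (SE, adjusted p = 0.0670, limma). Ifi30, a lysosomal thiol reductase induced by interferon-gamma, read 72.2, 218 and 179 in Cd274F/F regions, against 56.7, 75.2 and 66.8 in Cd274+/+ regions, and its groups overlapped. Ctsl, another cathepsin, averaged 117 ± 39.3 in Cd274F/F regions and 181 ± 24.0 in Cd274+/+ regions (SD, n = 3 each, adjusted p = 0.345, limma).

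Of 7 tested surface ligands that act on T cells beside class II, most of them costimulators or adhesion molecules and 1, Pdcd1lg2, the inhibitory ligand PD-L2, 0 were called (limma) and 3 were higher at an unadjusted p under 0.05, with a median change of 0.64. Cd86, the ligand of CD28, read 18.5, 28.3 and 25.8 in Cd274F/F regions, against 6.80, 15.4 and 13.9 in Cd274+/+ regions (adjusted p = 0.251, limma). Pdcd1lg2 read 7.40, 15.2 and 20.2 in Cd274F/F regions, against 10.6, 12.0 and 8.23 in Cd274+/+ regions, and overlapped. Cd80, a relative of Cd86, and Cd40 lay at 1.62 and 1.49 times the negative probe in Cd274+/+ regions. In Cd274F/F region 1, where class II signal was highest, Cd80 and Cd40 read 5.55 and 1.85, below both other Cd274F/F regions. These values were 1.16 and 0.388 times the negative probe, too near background to rank the regions. Cd4, the coreceptor that binds class II, and Lag3, an inhibitory class II receptor, both lay under 2 times the negative probe in Cd274+/+ regions, at 1.43 and 1.96 times, and neither passed the test (adjusted p = 0.451 and 0.759, limma).

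Most class II genes lie side by side with genes of class I peptide supply. Between H2-Oa and H2-Eb2 the RefSeq table lists 14 protein-coding genes, of which 13 were measured and H2-Eb2 was not analysed here. Of the 13, 8 were called higher and 0 lower (limma), and all 13 changes were positive after Q3 scaling. On the deposited scale H2-Oa, H2-DMb1, H2-Ob, Tap2 and Brd2 turned negative, with Brd2 lowest at -1.20. Among the 5 measured neighbours that are no class II genes, Psmb9 and Psmb8, subunits of the immunoproteasome, and Tap1, a peptide transporter, rose by 1.55, 1.35 and 1.82 on the log2 scale, with adjusted p of 0.0127, 0.0435 and 0.0127 (limma). Tap2, the partner of Tap1, changed by 1.11 (adjusted p = 0.0601, limma). Brd2, a chromatin reader that lies between H2-Oa and H2-DMa, read 118, 93.6 and 101 in Cd274F/F regions, against 88.4, 94.0 and 108 in Cd274+/+ regions. It changed by 0.11 ± 0.22 (SE), within the spread between regions.

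**Figure D3:**
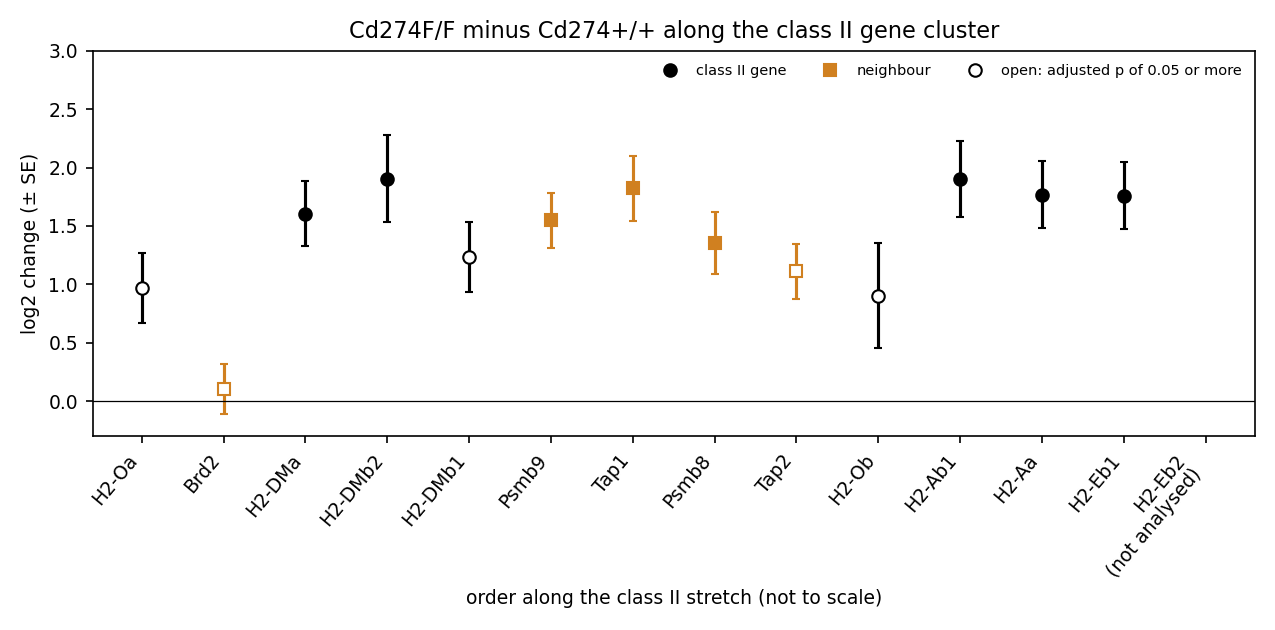
Log2 change with its SE (limma, n = 3 per group, Q3-scaled) of the genes of the class II cluster in their order along the chromosome, not to scale, with class II genes as circles and their neighbours as squares. Filled symbols passed an adjusted p under 0.05. Brd2 at 0.11 stands apart from the 12 other measured genes, which lie between 0.90 and 1.91.

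Ratios within a region do not depend on scaling, and they show how far the genes kept step. H2-Eb1 signal was 0.532, 0.437 and 0.495 times that of H2-Aa in Cd274F/F regions, against 0.443, 0.581 and 0.449 times in Cd274+/+ regions, a log2 difference of -0.0016. H2-Ab1 signal was 1.92, 1.35 and 1.78 times that of H2-Aa in Cd274F/F regions, against 1.37, 1.78 and 1.44 times in Cd274+/+ regions, a log2 difference of 0.13. Both ratios overlapped between groups. H2-DMb1 was the single gene of the 9 compared whose ratio to H2-Aa did not overlap, at 0.268, 0.198 and 0.205 in Cd274F/F regions, against 0.293, 0.362 and 0.304 in Cd274+/+ regions.

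The log2 difference of the H2-DMb1 ratio was -0.52, with an exact two-sided permutation p of 0.1, the smallest possible, and an adjusted p of 0.771 over the 9 ratios. Cd74 signal was 3.38, 1.49 and 2.59 times that of H2-Aa in Cd274F/F regions, against 3.16, 3.41 and 2.69 times in Cd274+/+ regions. Cd274F/F region 2 had the lowest such ratio of all. Ciita signal was 0.102 to 0.197 times that of H2-Aa over all regions. Among H2-Aa, H2-Ab1, H2-Eb1, H2-DMa and H2-DMb1 the log2 signals of the 10 pairs correlated with Pearson's r of 0.959 to 0.998 over the 6 regions, and of 0.735 to 0.983 after the group means were taken off. These points share their region and its scaling. After the group means were taken off, H2-Aa correlated less with H2-DMb2 and Ciita, at 0.49 and 0.50, while H2-DMa and Ciita reached 0.93. H2-Ob correlated negatively with 8 of the 9 other genes on this measure, with H2-Oa the exception. H2-Oa itself was positive only with H2-Aa (0.18) and H2-Ob (0.54), and negative with the rest, down to -0.58 with Cd74.

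**Figure D4:**
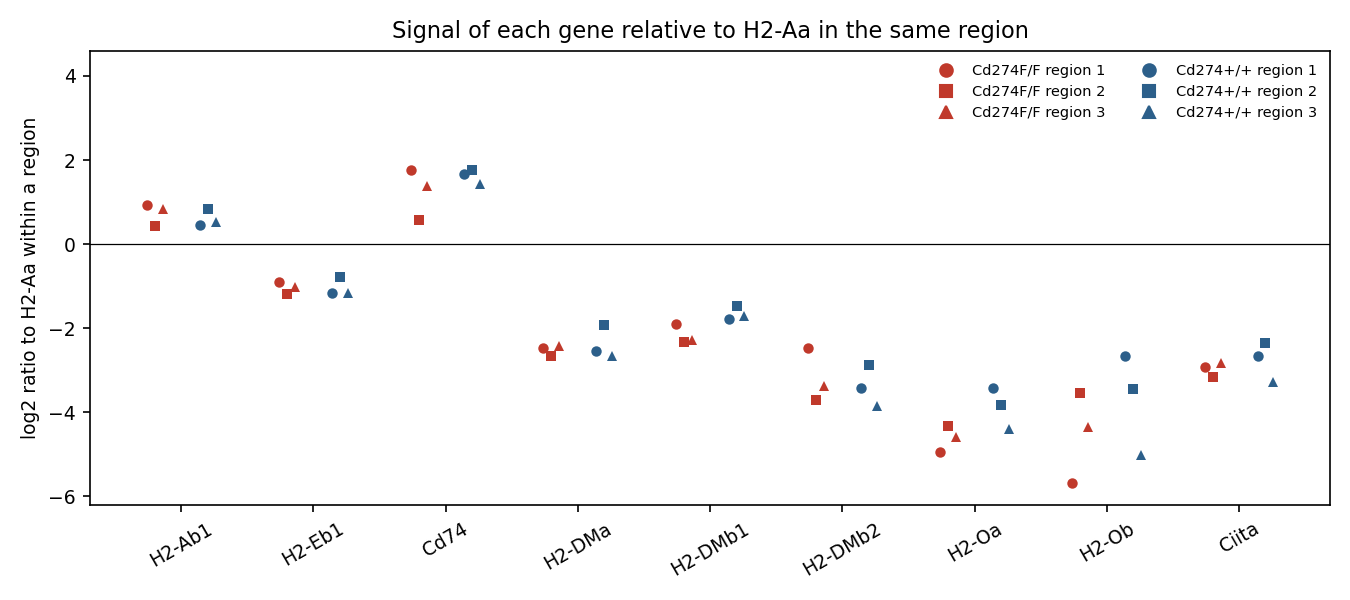
Log2 ratio of the signal of each class II gene to that of H2-Aa in the same region, with Cd274F/F regions in red and Cd274+/+ regions in blue. The groups overlap for all genes but H2-DMb1, and H2-Ob has the widest scatter, its linear ratio running from 0.0194 in Cd274F/F region 1 to 0.157 in Cd274+/+ region 1.

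Some leukocyte markers also differed between the groups. The mask excluded CD45-positive cells, yet Ptprc, which encodes CD45, read 29.6, 58.8 and 55.0 in Cd274F/F regions, against 21.2, 26.8 and 30.3 in Cd274+/+ regions (adjusted p = 0.274, limma). All 5 tested pan-leukocyte genes were positive, 4 without overlap and 1, Cd52, with a call (adjusted p = 0.0236, limma), and their summed signal was 331 to 370 in Cd274F/F regions and 137 to 206 in Cd274+/+ regions. Of 12 macrophage and monocyte genes 1 was called, Lyz2, the macrophage lysozyme (adjusted p = 0.0150, limma), and the sums overlapped, at 647 to 957 and 485 to 833. Of the 12, 10 had a positive change, with a median log2 change of 0.25. C1qa, C1qb and C1qc, the 3 with the highest signal, changed by 0.28, 0.45 and 0.23 and overlapped between groups. Of 7 dendritic cell genes 0 were called (limma), with 1 at an unadjusted p under 0.05 and sums of 120 to 176 and 95.2 to 132, and 2 of them averaged under 2 times the negative probe in Cd274+/+ regions and 0 in Cd274F/F regions.

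Of 3 tested B cell genes 0 were called in either direction (limma) and 0 had an unadjusted p under 0.05. Cd79b, a chain of the B cell receptor complex, averaged under 2 times the negative probe in both groups, at 1.41 and 1.72 times, and the B cell sums were 20.4 to 52.3 in Cd274F/F regions and 30.2 to 37.0 in Cd274+/+ regions. Of 7 T cell genes 0 were called (limma), with 4 at an unadjusted p under 0.05 and sums of 79.6 to 150 and 55.1 to 59.8, and 6 of them averaged under 2 times the negative probe in Cd274+/+ regions. Of 4 plasma cell genes 3 were called higher (limma), with sums of 414 to 4079 and 34.8 to 51.3.

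Lists of other tissue cells differed as well. Of 6 hepatocyte genes 2 were called higher and 0 lower (limma), Fabp1, a fatty acid binding protein, at 9.48 times and Mup13, a major urinary protein, at 17.5 times the Cd274+/+ mean (adjusted p = 0.00352 and 0.00362, limma). Of the 6, 4 had a positive change and the others a negative one, with a median log2 change of 0.49. The hepatocyte sums overlapped, at 3292 to 10150 in Cd274F/F regions and 3264 to 4399 in Cd274+/+ regions. Of 7 genes of cholangiocytes or tumour epithelium 0 were called (limma), with 5 lower at an unadjusted p under 0.05, and their sums were apart and lower, at 1165 to 1858 and 1886 to 2730. Of 9 fibroblast genes 0 were called in either direction (limma), with 1 higher and 1 lower at an unadjusted p under 0.05. The fibroblast sums were nonetheless apart and lower, at 3512 to 4913 in Cd274F/F regions and 5815 to 8110 in Cd274+/+ regions. The collagen genes Col1a1 and Col3a1 were lower in every Cd274F/F region and dominate this sum, averaging 2982 and 2711 of 7113 in Cd274+/+ regions. All other genes of the list overlapped between groups. Of the 9, 2 had a positive change, Thy1 and Pdgfra, at 2.45 and 1.56 times the Cd274+/+ mean. The part of any of these cells in the class II signal was not tested.

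Relative to most of these marker lists the class II signal was higher too, by ratios within a region, which do not depend on scaling. The 10 genes summed to 4.58, 3.70 and 3.16 times the macrophage and monocyte genes in Cd274F/F regions, against 1.63 times or less in Cd274+/+ regions. They summed to 13.2, 6.96 and 7.70 times the pan-leukocyte genes in Cd274F/F regions, against 5.36, 5.68 and 6.62 times in Cd274+/+ regions, groups that barely cleared each other. Against the 9 fibroblast genes, whose own sum was lower in Cd274F/F regions, the ratio was 0.927, 0.681 and 0.580 in Cd274F/F regions, against 0.126, 0.127 and 0.184 in Cd274+/+ regions. Against Ptprc itself the ratio overlapped, at 148, 40.7 and 51.8 in Cd274F/F regions and 34.7, 38.4 and 44.9 in Cd274+/+ regions (exact two-sided permutation p = 0.2). It also overlapped against the T cell genes, at 16.9 to 55.1 and 13.3 to 22.8, and against the hepatocyte genes, at 0.281 to 0.727 and 0.167 to 0.401. Of 16 such ratios 12 were higher without overlap, 1, to the plasma cell genes, was lower without overlap, and these 3 overlapped. The 13 that were apart had an exact two-sided permutation p of 0.1 and an adjusted p of 0.123. All 16 share the class II sum, itself higher in Cd274F/F regions, so a list that rose less gives a higher ratio by construction. Some also share genes, such as Ptprc and the pan-leukocyte list, so the 16 are not separate observations.

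**Figure D5:**
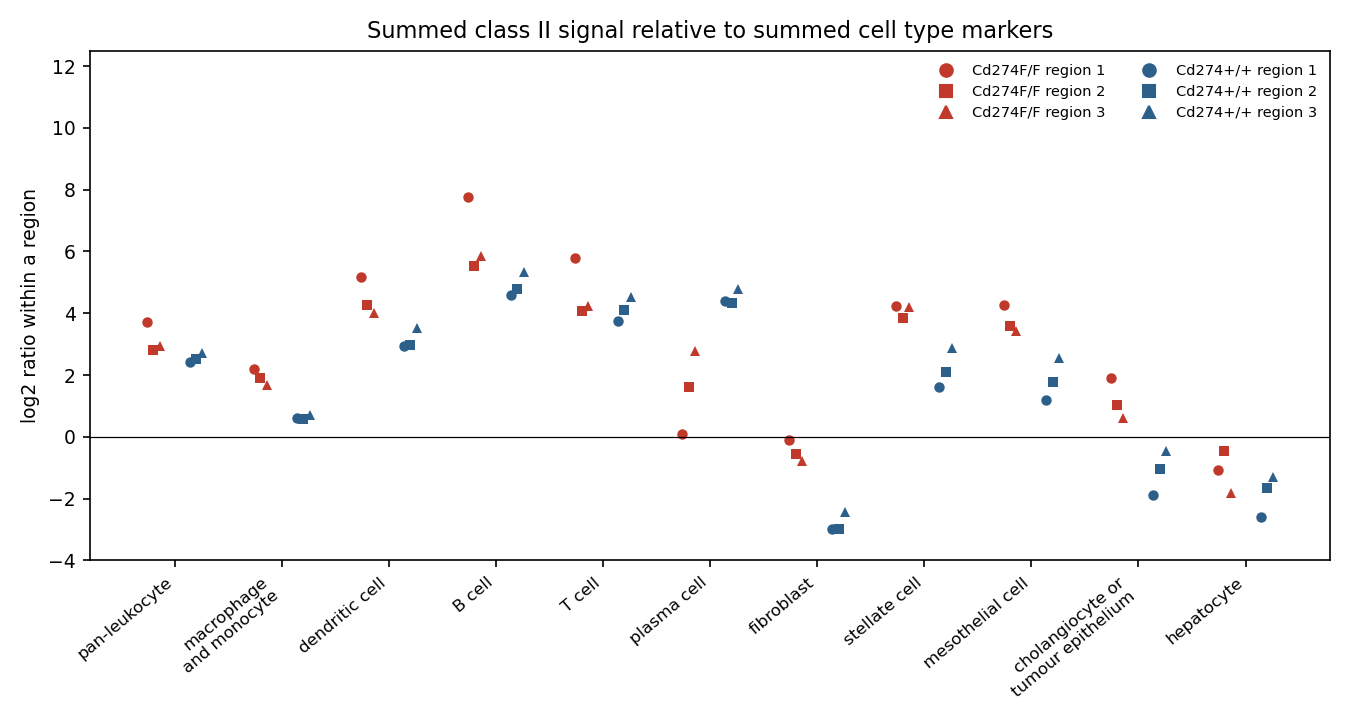
Log2 ratio of the summed signal of the 10 class II genes to the summed signal of marker lists of 11 cell types in the same region, with Cd274F/F regions in red and Cd274+/+ regions in blue. The ratios are apart and higher in Cd274F/F regions for 8 lists, overlap for T cells and hepatocytes, and are lower for plasma cells.

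The Cd274F/F regions were unlike each other. Region 1 was the highest of all 6 regions for 8 of the 10 genes and region 2 for the other 2, H2-Oa and H2-Ob. In region 1 Ptprc was the lowest of the 3 Cd274F/F regions (29.6), as were the summed T cell (79.6) and B cell (20.4) markers. The pan-leukocyte sum was also lowest there, but close, at 331 against 344 and 370 in regions 2 and 3. The summed plasma cell markers (4079) were the highest in region 1. So were the summed macrophage and monocyte markers, at 957 against 647 and 901 in regions 2 and 3. Among the Cd274+/+ regions, region 1 was the lowest of all 6 for 8 of the 10 genes.

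Of the markers listed for antigen-presenting fibroblasts beside class II, 0 of 4 tested were called (limma), with 2 higher at an unadjusted p under 0.05. Slpi, a secreted protease inhibitor, read 13.0, 26.1 and 23.6 in Cd274F/F regions, against 5.29, 7.40 and 7.20 in Cd274+/+ regions (adjusted p = 0.136, limma), where its signal was 1.36 times that of the negative probe. Msln, a mesothelial surface protein, read 62.9, 91.5 and 107 in Cd274F/F regions, against 131, 139 and 94.1 in Cd274+/+ regions. Irf5 read 31.5, 82.7 and 50.5 in Cd274F/F regions, against 11.3, 24.5 and 28.8 in Cd274+/+ regions (adjusted p = 0.183, limma). Slpi and Irf5 were thus apart and higher, while Msln overlapped between groups, with a negative change. Of the 4, 3 had a positive change, with a median log2 change of 0.87.

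Among 12208 other targets with a mean above 2 times the negative probe, the 8 whose log2 signal over the 6 regions was most like the mean of the class II genes had Pearson's r of 0.983 to 0.995. They were Ly6c1, Hs3st3b1, Vps26b, Apof, Pdia2, Gvin1, Adam3 and Hivep3. Ly6c1, a surface protein of monocytes, endothelium and some fibroblasts, came first and read 172, 107 and 99.8 in Cd274F/F regions, against 19.6, 35.3 and 32.9 in Cd274+/+ regions. Gvin1, an interferon-induced very large GTPase, read 94.4, 78.4 and 102 in Cd274F/F regions, against 9.82, 16.5 and 20.1 in Cd274+/+ regions. Adam3 and Hivep3 lay under 2 times the negative probe in Cd274+/+ regions, at 1.98 and 1.82 times. With 6 points and so many candidates, such values of r are a description only.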

How the data were processed

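Signal values were used as the authors deposited them, for 13264 targets plus the negative probe. How tags were counted, targets chosen and a factor set for each region is not stated in the labels used here. From the values, at least 99.98% in each column were whole multiples of a step within 0.01 step. The smallest value was 1 step in Cd274F/F and 2, 2 and 4 steps in Cd274+/+ regions, whole tags could not be established for every column, and no count model was used. All 6 value columns were used. The median target rested on 11, 11 and 19 steps in Cd274F/F and 26, 36 and 40 steps in Cd274+/+ regions.

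Regions were scaled to the geometric mean of their 75th percentiles. Changes are Cd274F/F minus Cd274+/+ on log2(signal + 1), which understates those of low genes, from limma 3.58.1 (trend on) in R 4.3.3 over all targets, tested on simulated data, with Benjamini-Hochberg adjustment. No target was removed by the filter on the negative probe. Single ratios had exact permutation tests over regions. The genes, lists and tests were chosen with earlier results of these data known. The named genes are the class II genes, called or leading members of the pathway lists, the most abundant markers and the 8 most alike targets. Rfx5, Ifngr1, Jak2, Pdcd1lg2, Cd40, Fabp1 and Lyz2 fall outside this rule and were chosen after their values were seen. Some list members are not reported here. Of the 13264 target names 13203, all 10 genes included, were in the RefSeq table. Alternatives were other scalings, pseudocounts, filters, variance models, a threshold of 0.1, taking the negative probe off first, and each region left out in turn. Figures used matplotlib 3.10.9 in Python 3.11.15.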

Additional observations from a re-analysis of the deposited data

How the results depend on the processing

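The count of 6 called class II genes was 5 or 6 under total scaling, quantile normalization, subtraction of the negative probe, other pseudocounts, a filter at 2 times the negative probe and a threshold of 0.1, and 8 with region weights. It was 0 as deposited, with negative-probe scaling and without a mean-variance trend (limma), where 0, 9 and 9 genes had an unadjusted p under 0.05 and the smallest adjusted p was 0.132, 0.143 and 0.104. With a region left out it ran from 0 to 8, and called targets from 15 to 1024. No class II gene was called lower in any of these fits. Over all targets 93 were called, against 9926 as deposited, 23 with negative-probe scaling, 0 without the trend (1577 at an unadjusted p under 0.05), 695 with region weights and 167 at a threshold of 0.1. The median change of the class II genes was 1.57, 0.29 as deposited, and 1.34 to 1.72 with a region left out. H2-DMb1, H2-Oa and H2-Ob turned to -0.062, -0.26 and -0.33 as deposited, without a call. Negative-probe scaling moved the median of all targets to -0.17. With the negative probe subtracted, the log2 difference of the H2-Oa ratio to H2-Aa was -0.24 in place of -0.74, and that of the H2-DMb2 ratio to H2-DMb1, added after the data were seen, was 1.13 in place of 0.73. The cause of these differences was not tested, beyond the fewer regions in the fits that leave one out. The planned count test was not run, since whole tags could not be established for every column. No paired analysis was possible because the labels number only the areas, from 11 to 16, and tie no region of a genotype to one of the other by animal, litter or batch. The region numbers 1 to 3 are names given in the order of the deposited samples. Low genes such as H2-Oa and H2-Ob are limited by signal near the negative probe.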
